A study of Mus musculus with 42 samples.

Results

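Prostaglandin synthesis, breakdown and sensing in cultured mouse synovial fibroblasts were followed through 8 genes: the phospholipase Pla2g4a, the cyclooxygenases Ptgs1 and Ptgs2, the terminal synthases Ptges and Ptgis, the degrading enzyme Hpgd, and the prostaglandin E2 receptors Ptger2 and Ptger4. The genes were chosen by name, as the probe sets listed with their symbols. Of the 8, 7 have at least 1 probe set listed, 12 probe sets in all, among 18194 genes and 34958 probe sets that are listed with 1 gene. No probe set is listed with the symbol Ptgs1, so the constitutive cyclooxygenase was not analysed here. Where a gene has several probe sets, the one with the largest SD over the arrays gives its value, and the others are given where they differ.

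Messenger RNA was measured on 42 Affymetrix arrays, 1 per culture, 15 of wild-type cells and 27 of cells labelled as TSG-6 (Tnfaip6) knockout. The fibroblasts of both genotypes came from the synovial tissue of arthritic female BALB/c mice, immunised with proteoglycan of cartilage together with DDA as adjuvant; the sources used here do not give their age. The cells had been grown for up to 6 passages, were kept overnight in 0.5% serum, and were then left untreated or exposed for 12 hours to 1 of 5 treatments. These were TNFa (5 ng/ml), LPS (200 ng/ml), hyaluronan (HA, 24 ug/ml), mouse TSG-6 made as a recombinant protein (120 ug/ml), and HA with TSG-6 at the same doses. Wild-type cultures numbered 5 untreated and 2 in each treatment. Knockout-labelled cultures numbered 8 untreated, 3 with TSG-6, and 4 in each of the other treatments. The study compared each treatment with untreated cultures of the same genotype, and the genotypes within each condition. Biological replicates is what the labels call the cultures, and whether each has an animal of its own is not stated, so p-values measure only the spread between these cultures.

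Prostanoids are made from arachidonic acid that cytosolic phospholipase A2 releases from membranes. Cyclooxygenases turn it into the endoperoxide prostaglandin H2, from which terminal synthases make the individual products, among them prostaglandin E2 (by the microsomal synthase that Ptges encodes) and prostacyclin (by the synthase that Ptgis encodes). In inflamed joints, synovial fibroblasts are a known source of prostaglandin E2, whose synthesis is classically induced by inflammatory cytokines through Ptgs2 and Ptges. Prostaglandin E2 acts on cells through EP receptors, of which those encoded by Ptger2 and Ptger4 raise cAMP, and it is inactivated inside cells by the hydroxyprostaglandin dehydrogenase that Hpgd encodes.

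The start-site regions of 3 genes are shown because the results turn on them: Ptgs2 and Ptges moved together under TNFa in knockout-labelled cells, and Hpgd had the largest difference between genotypes. Each run is RefSeq's 300 bases on GRCm38.p6, from 250 before the annotated start to 50 after it, read 5′ to 3′ on the strand of the gene. Capitals mark matches to the motifs named below.
Ptgs2 (chr1:150099781-150100080, plus strand): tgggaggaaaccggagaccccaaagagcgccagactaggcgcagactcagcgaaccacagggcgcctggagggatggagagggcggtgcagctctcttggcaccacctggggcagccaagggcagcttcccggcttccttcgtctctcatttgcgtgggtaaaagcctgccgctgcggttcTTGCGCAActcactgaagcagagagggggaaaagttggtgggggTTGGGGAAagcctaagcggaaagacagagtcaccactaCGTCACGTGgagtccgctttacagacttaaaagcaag
Ptges (chr2:30903248-30903547, minus strand): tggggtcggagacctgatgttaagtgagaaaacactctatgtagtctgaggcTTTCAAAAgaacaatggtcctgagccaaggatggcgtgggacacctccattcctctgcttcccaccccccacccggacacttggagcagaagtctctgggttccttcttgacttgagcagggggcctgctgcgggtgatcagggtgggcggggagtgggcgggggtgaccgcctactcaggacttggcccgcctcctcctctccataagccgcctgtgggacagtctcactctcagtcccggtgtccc
Hpgd (chr8:56294302-56294601, plus strand): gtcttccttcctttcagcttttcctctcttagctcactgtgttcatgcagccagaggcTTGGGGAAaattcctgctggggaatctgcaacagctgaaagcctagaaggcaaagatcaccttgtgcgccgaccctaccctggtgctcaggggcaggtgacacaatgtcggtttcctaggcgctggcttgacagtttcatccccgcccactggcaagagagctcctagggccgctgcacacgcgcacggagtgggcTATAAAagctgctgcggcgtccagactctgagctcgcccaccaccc
The windows of Ptgs2 and Hpgd hold the sequence before the gene and its first transcribed bases, whereas that of Ptges surrounds a start inside the annotated span of the gene, chr2:30889471-30931020. The C/EBP consensus, searched as TTNCNNAA on both strands, begins 69 and 25 bases before the start in Ptgs2, 198 before it in Ptges and 192 before it in Hpgd; it occurs in 40.7% of the 32544 RefSeq windows of this length. After its start, Ptgs2 also has the 5-letter core of a cAMP response element, TGACG on the opposite strand (position 14; in 20.9% of windows), which overlaps the E-box CACGTG (position 17; in 7.17%). Hpgd has the TATA box letters TATAAA at position 5 (in 13.6%). The NF-kB consensus, found in 8.49% of windows, the full cAMP response element, TGACGTCA, found in 1.80%, and the Egr consensus, found in 3.50%, have no match in these 3 windows, which says only that those letters are not there.

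The deposited values are log2 and centred on the median of each probe set over the 42 arrays. They give differences between cultures and no absolute level, so levels of different genes cannot be compared. Tnfaip6, the targeted gene, ranged from -0.55 to 0.45 in wild-type and from -0.42 to 0.89 in knockout-labelled cultures. Untreated knockout-labelled cultures were 0.26 ± 0.16 (SE) above untreated wild-type ones (limma, adjusted p = 0.22), so its signal was not lower in the knockout-labelled cells. No source used here says whether that probe set covers what the mutation removes, and the genotype labels are therefore used as they stand. Within each genotype the arrays fell into 2 sets, a and b, that the labels do not name and that were found from probe sets of no prostaglandin gene: 8 and 7 arrays in wild-type, 14 and 13 in knockout-labelled cells. Each set holds every treatment, and members that differ between the sets are given with the value in each. On 15 arrays the probe set for 18S ribosomal RNA was high, with a centred value above 1.

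Most of the measured members were among the more variable genes on these arrays. By SD over the 42 arrays Hpgd stood at the 99.9th percentile of all genes, Ptges at the 98.0th, Ptgs2 at the 95.5th, Ptger4 at the 92.6th, Ptger2 at the 87.9th, Ptgis at the 85.9th and Pla2g4a at the 68.7th. Few groups stood apart when the 12 were ordered by mean. For Ptges, 4 tiers did not overlap: knockout-labelled cells with TNFa, the other 5 knockout-labelled groups, wild-type cells with TNFa, and the other 5 wild-type groups. On a further Ptges probe set the middle tiers met, untreated knockout-labelled cultures reaching down to -0.57 and wild-type TNFa cultures up to -0.45. For Hpgd all knockout-labelled cultures lay above all wild-type cultures. For Ptgs2, Pla2g4a, Ptger2 and Ptger4 every neighbouring pair of groups in that order overlapped.

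**Figure D1:**
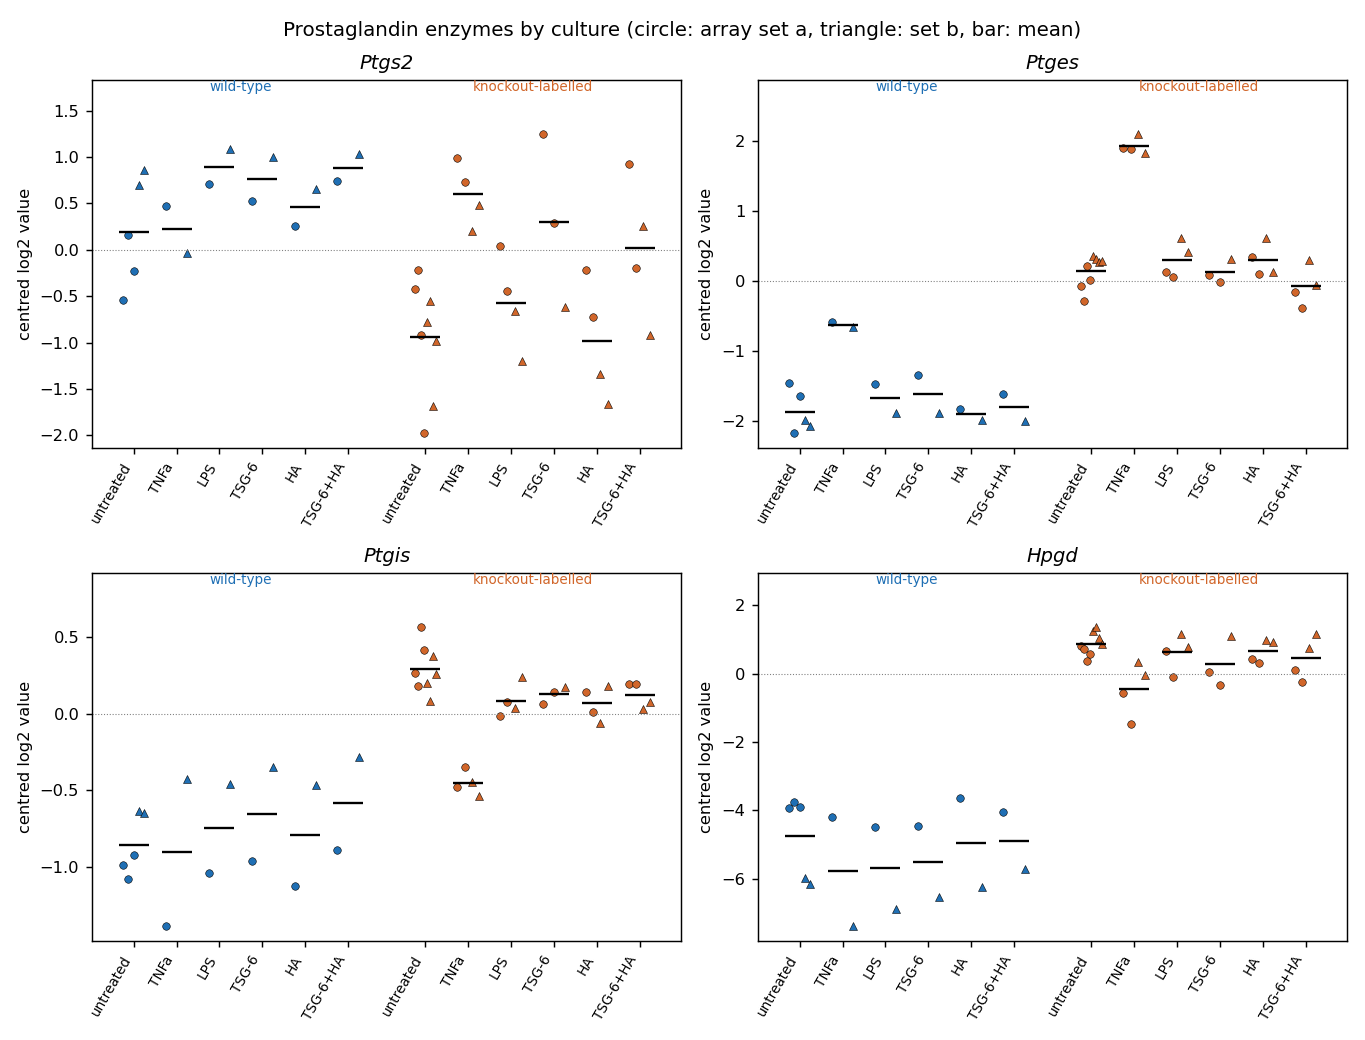
Centred log2 values (vertical axis) of Ptgs2, Ptges, Ptgis and Hpgd in each culture by genotype and treatment; circles are arrays of set a, triangles of set b, and bars are group means. Ptges with TNFa stands above the other groups of its own genotype, between 1.83 and 2.10 in knockout-labelled cells, and Hpgd separates the genotypes with wild-type values between -7.37 and -3.64.

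TNFa raised Ptges in both genotypes, and in knockout-labelled cells Ptgs2 rose and Ptgis fell as well. Thus 3 of 7 members changed in knockout-labelled cells, where 14.0% of all genes did, and 1 of 7 in wild-type cells, where 2.56% did. With the array set as a block the counts were 5 of 7 (19.0% of genes) and 3 of 7 (4.59%), the further members being Hpgd and Ptger2 in both genotypes. The treated and untreated ranges were apart for 4 of 7 members in knockout-labelled cells (9.38% of genes) and for 3 of 7 in wild-type cells (13.7%). Ptges encodes the inducible microsomal prostaglandin E synthase. In wild-type cells it read -1.46, -2.17, -1.64, -1.99 and -2.08 in the 5 untreated cultures and -0.59 and -0.66 in the 2 with TNFa. The TNFa cultures lay above every untreated culture, with a difference of 1.25 ± 0.20 (2.37-fold; limma, adjusted p = 7.1e-05). With quantile normalization it was 0.89 ± 0.23 and did not pass (adjusted p = 0.0655). In knockout-labelled cells Ptges ranged from -0.28 to 0.36, with a median of 0.25, in 8 untreated cultures and read 1.91, 1.89, 2.10 and 1.83 with TNFa. The groups were again apart, with a difference of 1.79 ± 0.15 (3.46-fold; adjusted p = 9.63e-12). Both further Ptges probe sets also passed when all probe sets were tested (2.07% of them called in wild-type and 12.5% in knockout-labelled cells), with 1.00 ± 0.24 and 0.87 ± 0.20 in wild-type and 1.53 ± 0.18 and 1.5 ± 0.15 in knockout-labelled cells.

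Ptgs2, the inducible cyclooxygenase, rose with TNFa in knockout-labelled cells. In knockout-labelled cells it ranged from -1.97 to -0.22 in untreated cultures, with a median of -0.85, and read 0.99, 0.73, 0.20 and 0.48 with TNFa. All 4 TNFa cultures were above all 8 untreated ones, by 1.54 ± 0.34 (2.92-fold; adjusted p = 0.00116), and the second probe set gave 1.57 ± 0.30. Without the arrays of high 18S signal the difference was 1.41 ± 0.46 and no longer passed (adjusted p = 0.0564). In wild-type cells the untreated cultures read -0.54, 0.16, -0.23, 0.70 and 0.86, and the TNFa cultures 0.48 and -0.04, inside that range. The difference was 0.03 ± 0.46 (adjusted p = 1.0), with a 95% interval from -0.91 to 0.97. It merges opposite signs: 0.68 ± 0.56 in array set a and -0.82 ± 0.59 in set b, each with 1 TNFa culture.

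Ptgis, prostacyclin synthase, moved the other way in knockout-labelled cells. It ranged from 0.09 to 0.57 in the untreated cultures, with a median of 0.27, and read -0.48, -0.35, -0.44 and -0.53 with TNFa. Every TNFa culture was below every culture of the other 5 knockout-labelled groups. Ptgis fell by 0.75 ± 0.14 on the log2 scale (1.68-fold; adjusted p = 0.000191). In wild-type cells its 2 TNFa cultures lay at opposite ends, -1.39 and -0.42, around untreated values of -0.99, -1.08, -0.93, -0.64 and -0.65. The difference of -0.05 ± 0.19 had an adjusted p of 0.996, and it was -0.39 ± 0.14 in array set a and 0.22 ± 0.15 in set b, each with 1 TNFa culture; neither passed.

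Hpgd, which inactivates prostaglandin E2, lay below the untreated range in knockout-labelled cells with TNFa, but its main probe set missed the threshold. It ranged from 0.38 to 1.36 in the 8 untreated cultures, with a median of 0.84, and read -0.57, -1.47, 0.35 and -0.05 with TNFa. The groups did not overlap, and the difference was -1.31 ± 0.54 (adjusted p = 0.113). The spread that this test uses is shared with the wild-type cultures, in which Hpgd took values near -4 or -6 according to array set. With the array set as a block the standard error was smaller and the difference passed (-1.31 ± 0.18, adjusted p = 6.53e-07). In each set alone it was -1.64 ± 0.22 in set a (adjusted p = 1.84e-05) and -0.98 ± 0.22 in set b (adjusted p = 0.00467). The second Hpgd probe set gave -1.28 ± 0.36, and that passed when all probe sets were tested (adjusted p = 0.0137). The difference also passed with only the groups compared (adjusted p = 0.00466), with quantile normalization (adjusted p = 0.00258), with cyclic loess (adjusted p = 0.00341) and as the mean of both probe sets (adjusted p = 0.00828). With TNFa, wild-type cells read -4.19 in set a and -7.37 in set b; the difference from untreated cells was -1.03 ± 0.74 (adjusted p = 0.836), and -0.80 ± 0.24 with the array set as a block (adjusted p = 0.0499). By set it was -0.33 ± 0.30 in set a (adjusted p = 1.0) and -1.30 ± 0.32 in set b (adjusted p = 0.0264), each resting on 1 TNFa culture, whose spread is taken from the other groups. On the second probe set it was 0.13 ± 0.49.

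Neither EP receptor passed the test under TNFa in either genotype, though Ptger2 did under several alternatives. Ptger2 came closest, in wild-type cells, where untreated cultures read -0.38, -0.27, -0.52, -0.82 and -0.64 and the TNFa cultures 1.09 and 0.57. Both TNFa cultures were above all 13 others of that genotype, and the difference was 1.35 ± 0.39 (2.55-fold; adjusted p = 0.0523). It passed with only the groups compared (adjusted p = 0.00918), with the mean of the probe sets of each gene (adjusted p = 0.048), with the replicate block (1.15 ± 0.32, adjusted p = 0.0398) and with the array set as a block (1.40 ± 0.19, adjusted p = 3.34e-06). It was 1.48 ± 0.28 in set a and 1.29 ± 0.30 in set b, each with 1 TNFa culture. In knockout-labelled cells Ptger2 read 0.35, 0.04, 0.84 and 1.15 with TNFa, against -0.63 to 0.88 without it, and differed by 0.44 ± 0.28 (adjusted p = 0.368), or by 0.44 ± 0.14 with the array set as a block (adjusted p = 0.0235). In neither set alone did it pass, at 0.43 ± 0.21 in set a (adjusted p = 0.236) and 0.46 ± 0.21 in set b (adjusted p = 0.22). Ptger4 was lower in the wild-type TNFa cultures, at 0.40 and -0.17 against 0.66, 1.07, 1.24, 0.92 and 0.76, a difference of -0.82 ± 0.33 with ranges apart (adjusted p = 0.333). In knockout-labelled cells Ptger4 read 0.00, -0.51, 0.19 and -0.00 with TNFa against -1.12 to -0.06, with overlap and a difference of 0.45 ± 0.24 (adjusted p = 0.258). Pla2g4a, which encodes the phospholipase that supplies arachidonic acid, differed by -0.05 ± 0.23 in wild-type and by 0.16 ± 0.17 in knockout-labelled cells.

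**Figure D2:**
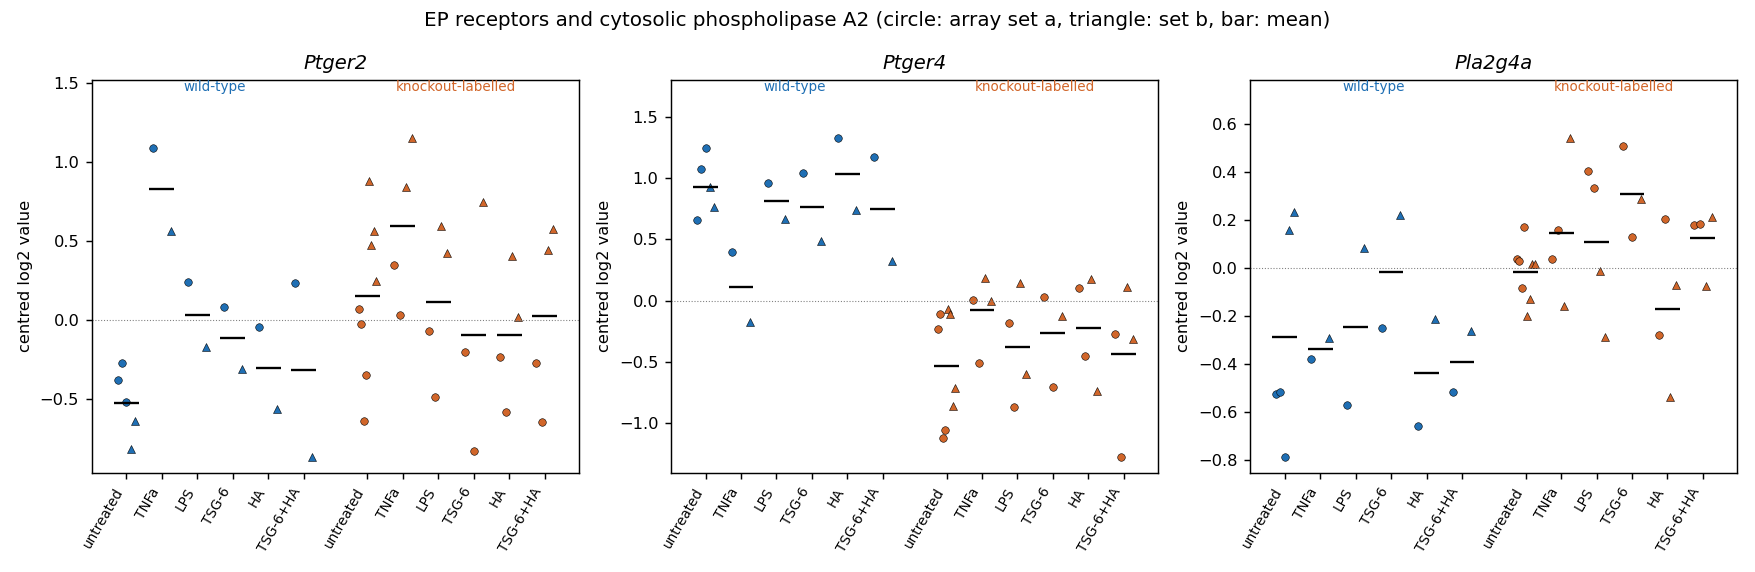
Centred log2 values (vertical axis) of the EP receptor genes Ptger2 and Ptger4 and of Pla2g4a in each culture by genotype and treatment; circles are arrays of set a, triangles of set b, and bars are group means. In knockout-labelled cells Ptger2 is lower in set a (median -0.25) than in set b (median 0.56), and Ptger4 is high in wild-type cultures other than those with TNFa.

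A change called in one genotype only does not show that the genotypes responded differently, so the difference in response was tested itself. No member passed in any of the 5 treatments (limma, 0 of 35 tests), where 0.808% of all genes passed for TNFa, 0.214% for LPS, 0.0824% for TSG-6, 0.0440% for HA and 0.181% for both. At an unadjusted p under 0.05 there were 4 members for TNFa and 0 for each of the others. For TNFa the knockout-labelled response exceeded the wild-type response by 1.51 ± 0.57 for Ptgs2 (adjusted p = 0.386), by 1.27 ± 0.41 for Ptger4 (adjusted p = 0.219) and by 0.55 ± 0.25 for Ptges (adjusted p = 0.619). It was lower by the same measure for Ptgis, at -0.70 ± 0.24 (adjusted p = 0.265). The Ptgis difference rested on the wild-type TNFa replicates, which disagreed: without replicate 1 it was -1.18 ± 0.25 and passed (adjusted p = 0.0138). With the array set as a block, 2 of the 7 differences in TNFa response passed, where 2.22% of genes did: Ptgis at -0.64 ± 0.13 (adjusted p = 0.00439) and Ptger2 at -0.96 ± 0.24 (adjusted p = 0.0204), each lower in the knockout-labelled response. Ptges passed with quantile normalization (1.29 ± 0.28, adjusted p = 0.00816), where 236 of 18194 genes did. With the replicate block Ptges (0.77 ± 0.16, adjusted p = 0.0137) and Ptgis (-0.94 ± 0.20, adjusted p = 0.0133) passed, where 227 genes did. That block sets some TNFa cultures of set b against untreated cultures of set a. With the array set as a block the Ptges difference was 0.52 ± 0.18 and did not pass (limma, adjusted p = 0.186).

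**Figure D3:**
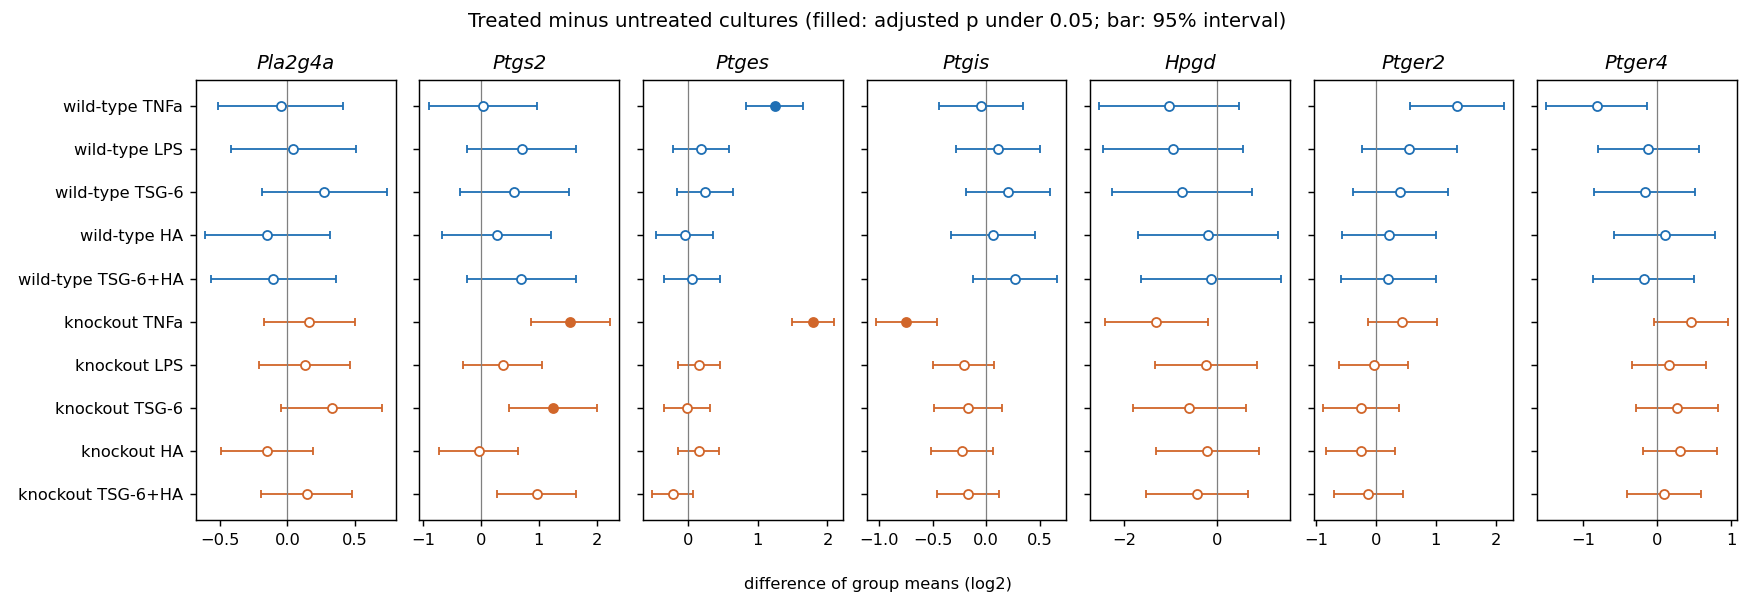
Difference between treated and untreated group means (horizontal axis, log2) for each member, treatment and genotype, with 95% intervals; filled points have an adjusted p under 0.05. The filled points are Ptges with TNFa in both genotypes, Ptgs2 and Ptgis with TNFa and Ptgs2 with TSG-6 in knockout-labelled cells.

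With LPS, the bacterial endotoxin that signals through a Toll-like receptor, no member passed in either genotype (limma, 0 of 7 in each, also at an unadjusted p under 0.05, against 1.19% of genes called in wild-type and 1.79% in knockout-labelled cells). Ptges with LPS read -1.47 and -1.89 in wild-type and 0.13, 0.05, 0.62 and 0.41 in knockout-labelled cells, within or next to the untreated values. Its differences were 0.19 ± 0.20 and 0.16 ± 0.15. Ptgs2 read 0.70 and 1.08 in wild-type cells with LPS, 1 inside and 1 above the untreated range, and 0.04, -0.45, -0.66 and -1.20 in knockout-labelled cells, which spans much of it. Its differences of 0.70 ± 0.46 and 0.37 ± 0.34 had 95% intervals of -0.24 to 1.64 and -0.32 to 1.06.

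Set directly against LPS, TNFa gave more Ptges in both genotypes. In knockout-labelled cells the difference was 1.63 ± 0.17 (3.09-fold; adjusted p = 1.1e-08), and Ptges was the only one of 7 members called, where 3.50% of genes were. Ptgs2 was higher with TNFa by 1.17 ± 0.39 and Ptgis lower, at -0.54 ± 0.16, each with ranges apart, but neither passed (adjusted p = 0.102 and 0.0618). The second Ptgs2 probe set passed, with 1.29 ± 0.35 (adjusted p = 0.0308; 2.92% of probe sets). With the array set as a block 4 of 7 members were called, where 6.23% of genes were: Ptges, Ptgs2 (adjusted p = 0.024), Ptgis (adjusted p = 0.000103) and Hpgd, with a difference of -1.07 ± 0.20 (adjusted p = 0.000484). In wild-type cells Ptges was higher by 1.06 ± 0.24 (2.08-fold; adjusted p = 0.026), 1 of 7 members against 0.445% of genes. That call was lost without TNFa replicate 1 (1.02, adjusted p = 0.132), TNFa replicate 2 (1.09, adjusted p = 0.195) or LPS replicate 2 (0.85, adjusted p = 0.521).

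Recombinant TSG-6 and hyaluronan, its binding partner in the extracellular matrix, gave 1 call between them. TSG-6 raised Ptgs2 in knockout-labelled cells, the only call among 7 members, where 4.75% of genes were called. The 3 cultures read 1.24, 0.28 and -0.62 and overlapped the untreated range of -1.97 to -0.22. The difference was 1.24 ± 0.37 (2.37-fold; adjusted p = 0.0461), and 1.13 ± 0.33 on the second probe set, which passed too (adjusted p = 0.0449; 4.38% of probe sets). It was lost without TSG-6 replicate 1 (0.77 ± 0.42, adjusted p = 0.473), without TSG-6 replicate 2 (adjusted p = 0.153), without any one of untreated replicates 3, 4, 5, 7 and 8 (adjusted p from 0.0551 to 0.0852), with only the groups compared (adjusted p = 0.115) and without the arrays of high 18S signal (adjusted p = 0.289). By array set it was 1.65 ± 0.42 in set a (adjusted p = 0.0215) and 0.38 ± 0.54 in set b, which has 1 TSG-6 culture (adjusted p = 0.836).

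TSG-6 with HA gave Ptgs2 values of 0.92, -0.19, 0.26 and -0.91 in knockout-labelled cells, overlapping the untreated cultures. The difference was 0.96 ± 0.34 and did not pass (adjusted p = 0.0677), so that 0 of 7 members were called by limma, 1 at an unadjusted p under 0.05, where 9.94% of genes were called. It did pass with the array set as a block (0.96 ± 0.29, adjusted p = 0.0188; 14.6% of genes), and without untreated replicate 2 (1.06, adjusted p = 0.0415) or TSG-6 with HA replicate 4 (1.27, adjusted p = 0.0182). HA alone left Ptgs2 at -0.22, -0.73, -1.34 and -1.66, a difference of -0.04 ± 0.34, and called 0 of 7 members (0 at an unadjusted p under 0.05; 0.643% of genes). Setting TSG-6 with HA against HA alone, Ptgs2 differed by 1.01 ± 0.39 (adjusted p = 0.265) and Ptges by -0.37 ± 0.17 (adjusted p = 0.392); against TSG-6 alone, Ptgs2 differed by -0.28 ± 0.42 (adjusted p = 0.999). These comparisons called 0 of 7 members each by limma, 2 and 0 at an unadjusted p under 0.05, against 1.79% and 0% of genes. In wild-type cells TSG-6, HA and both together called 0 of 7 members each by limma, and 0 at an unadjusted p under 0.05, against 0.429%, 0.132% and 0.802% of genes. The Ptgs2 readings there were 0.53 and 1.00 with TSG-6, 0.26 and 0.66 with HA, and 0.74 and 1.03 with both.

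More members passed between the untreated genotypes than under any treatment. Untreated knockout-labelled cells had more Hpgd, Ptges and Ptgis and less Ptger4 and Ptgs2 than untreated wild-type cells, and 6 of 7 members passed, where 37.6% of all genes did. The ranges of 4 of 7 were apart (23.2% of genes). Across the 6 conditions 26 of 42 tests passed, where between 18.9% (TSG-6) and 37.6% (untreated) of all genes passed in each. The same 7 genes are read in every condition, so these are not 42 separate results. In these bulk cultures, fewer cells of a type and less RNA per cell cannot be told apart. Hpgd ranged from -1.47 to 1.36 over the 27 knockout-labelled cultures. In wild-type cultures it lay between -4.50 and -3.64 in array set a and between -7.37 and -5.71 in set b. No culture of one genotype came within the range of the other. The untreated difference was 5.62 ± 0.51 (49.2-fold; adjusted p = 1.79e-11), and under treatment it lay between 5.33 ± 0.77 with TSG-6 and HA and 6.33 ± 0.77 with LPS, all 5 called. With cyclic loess normalization the Hpgd difference was 0.58 ± 0.22 in untreated cells (adjusted p = 0.0466), and with TNFa (0.34), LPS (0.99), TSG-6 (0.63), HA (0.53) and both (0.23) it did not pass (adjusted p from 0.0554 to 0.742). The second Hpgd probe set gave a smaller difference of 2.69 ± 0.34 in untreated cells (adjusted p = 3.52e-08; 33.8% of probe sets), and 1.28 ± 0.51 with TNFa, which did not pass (adjusted p = 0.0769; 20.1% of probe sets). That probe set read between -1.90 and -1.41 in all wild-type cultures, with no split between array sets, and its values correlated with those of the main probe set at r = 0.22 within the 15 wild-type arrays.

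Ptges was higher in knockout-labelled cells in all 6 conditions. On its main probe set the lowest knockout-labelled value, -0.38, was above the highest wild-type value, -0.59. There the difference was 2.01 ± 0.14 in untreated cells (4.02-fold; adjusted p = 1.09e-14) and 2.55 ± 0.21 with TNFa (5.87-fold; adjusted p = 5.38e-12). The further probe sets stood closer, with untreated means of 0.19 against -1.40 and of -0.03 against -1.44. On the last of these the genotypes overlapped, knockout-labelled values reaching down to -0.57 and wild-type ones up to -0.45. With TNFa, Ptges and Hpgd were the only 2 of 7 members called, where 23.5% of genes were. The other treatments gave between 1.73 ± 0.21 with TSG-6 and HA and 2.21 ± 0.21 with HA. With cyclic loess the Ptges difference was 0.52 ± 0.11 in untreated cells, 1.10 ± 0.17 with TNFa and 0.69 ± 0.17 with HA, and it no longer passed with LPS (0.48), TSG-6 (0.35) or both (0.36). Ptgis was 1.15 ± 0.13 higher in untreated knockout-labelled cells (2.22-fold; adjusted p = 4.03e-09), with no overlap. With cyclic loess that difference was -0.001 ± 0.17 and did not pass (adjusted p = 0.999). Ptgis was 0.84 ± 0.20 higher with LPS, 0.78 ± 0.21 with TSG-6, 0.86 ± 0.20 with HA and 0.71 ± 0.20 with both, and each passed. With cyclic loess none of these 4 passed, at -0.336 to -0.292 with SEs of 0.25 to 0.27 (adjusted p from 0.461 to 0.614). Each of these 4 was lost without replicate 1 of its wild-type group, leaving 0.55, 0.48, 0.53 and 0.41 (adjusted p from 0.136 to 0.287); wild-type Ptgis ran from -1.39 to -0.89 in set a and from -0.65 to -0.28 in set b. With TNFa, Ptgis differed by 0.46 ± 0.20 and did not pass (adjusted p = 0.104), though it did without wild-type TNFa replicate 2 (0.94, adjusted p = 0.00279) or without the arrays of high 18S signal (0.93, adjusted p = 0.00544).

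Ptger4 and Ptgs2 ran the other way. Ptger4 read from 0.66 to 1.24 in the 5 untreated wild-type cultures and from -1.12 to -0.06 in the 8 untreated knockout-labelled ones. These ranges were apart, and knockout-labelled cells were lower by the difference of -1.46 ± 0.23 (2.76-fold; adjusted p = 1.92e-06); the second probe set gave -1.26 ± 0.15. Ptger4 was also lower in knockout-labelled cells with LPS (-1.19 ± 0.35), TSG-6 (-1.03 ± 0.37), HA (-1.26 ± 0.35) and both (-1.18 ± 0.35). None of these 4 passed with quantile normalization (adjusted p from 0.0646 to 0.214). These 4 calls were each lost without replicate 1 of the wild-type group (adjusted p from 0.112 to 0.356). With TNFa it differed by -0.19 ± 0.35 (adjusted p = 0.785). Without other single arrays the Ptger4 call was also lost with TSG-6, namely wild-type replicate 2 (adjusted p = 0.0636) and knockout-labelled replicates 2 and 3 (adjusted p = 0.186 and 0.0643), and with TSG-6 and HA, knockout-labelled replicate 2 (adjusted p = 0.0562).

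Ptgs2 was lower in untreated knockout-labelled cells by a difference of -1.13 ± 0.32 (2.19-fold; adjusted p = 0.00382), although the ranges met, wild-type cultures reaching down to -0.54 and knockout-labelled ones up to -0.22. Without the arrays of high 18S signal it was -0.83 ± 0.37 and did not pass (adjusted p = 0.0904). The array sets differed. In set a untreated wild-type cultures read -0.54, 0.16 and -0.23 and knockout-labelled ones -0.42, -0.22, -0.91 and -1.97, with overlap. In set b they read 0.70 and 0.86 against -0.78, -0.55, -1.69 and -0.98. On the second probe set these were -0.52, -0.10 and -0.50 against -0.49, -0.40, -0.66 and -0.50 in set a. In set b they were 1.00 and 0.95 against -1.23, -1.06, -1.05 and -0.95. With TNFa the sign of the difference was positive, 0.38 ± 0.48 (adjusted p = 0.67). Over all conditions, the wild-type Ptgs2 median was 0.366 in set a and 0.856 in set b. In knockout-labelled arrays the medians were -0.205 and -0.781. The sets were found in each genotype on its own, so the same letter need not mean the same set in both. With LPS (-1.46 ± 0.48) and HA (-1.44 ± 0.48) Ptgs2 was lower in knockout-labelled cells. Each of those 2 calls was lost without either wild-type replicate, without knockout-labelled LPS replicate 4, and without knockout-labelled HA replicates 3 or 4 (adjusted p from 0.0608 to 0.227), with quantile normalization (adjusted p = 0.14 and 0.0671) and without the arrays of high 18S signal (adjusted p = 0.466 and 0.393). With TSG-6 (-0.46 ± 0.51) and with both agents (-0.87 ± 0.48) it did not pass. LPS and HA thus each called 5 of 7 members between genotypes, against 24.0% and 23.3% of genes, and TSG-6 and the combination called 4 of 7 each, against 18.9% and 21.6%.

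Ptger2 passed between untreated genotypes, higher in knockout-labelled cells by 0.68 ± 0.26 (1.60-fold; adjusted p = 0.0408), with overlapping ranges of -0.82 to -0.27 and -0.63 to 0.88. The call was lost without any one of wild-type untreated replicates 1, 3, 4 and 5 or knockout-labelled untreated replicates 5, 6, 7 and 8 (0.57 to 0.71, adjusted p from 0.0509 to 0.106), with quantile normalization (adjusted p = 0.159), with cyclic loess (adjusted p = 0.0625) and without the arrays of high 18S signal (adjusted p = 0.125). Over all conditions, the wild-type Ptger2 median was 0.02 in set a and -0.56 in set b, and the knockout-labelled medians were -0.25 and 0.56. The knockout-labelled median was thus the higher only in set b. In no treatment did Ptger2 pass between genotypes. Pla2g4a was never called between genotypes or by any treatment; in untreated cells it differed by 0.27 ± 0.15 (adjusted p = 0.19), and by 0.40 ± 0.16 without wild-type replicate 5, which passed (adjusted p = 0.0462). Wild-type Pla2g4a ran from -0.79 to -0.25 in set a and from -0.29 to 0.23 in set b.

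**Figure D4:**
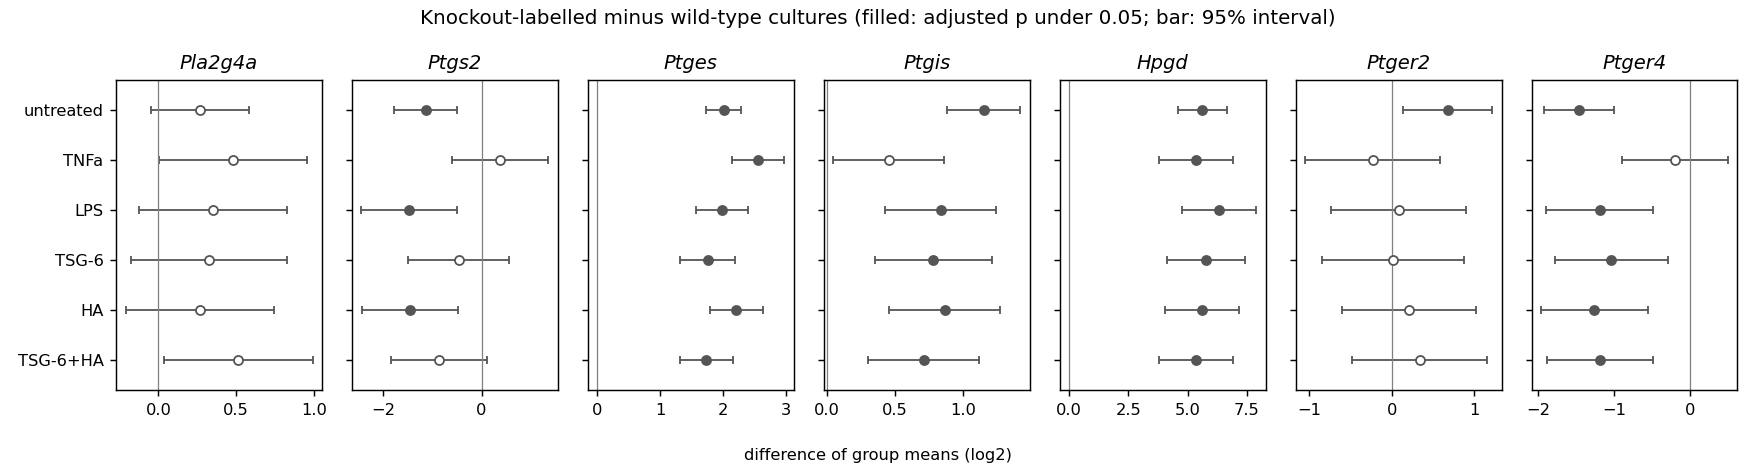
Difference between knockout-labelled and wild-type group means (horizontal axis, log2) for each member in each culture condition, with 95% intervals; filled points have an adjusted p under 0.05. Hpgd and Ptges lie to the right of 0 in all 6 conditions, and with TNFa the points of Ptgs2 and Ptger4, left of 0 in untreated cells, sit at 0.38 and -0.19.

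Markers of other cell types differed between the genotypes as well. All 7 endothelial markers were lower in untreated knockout-labelled cells, among them Pecam1 (-6.20), Emcn (-6.56) and Cdh5 (-5.67), and their mean ranged from 3.15 to 4.12 over wild-type arrays and from -1.75 to 0.28 over knockout-labelled ones. Of 4 chondrocyte markers, 3 were higher, Comp by 4.42, Sox9 by 1.55 and Col2a1 by 1.44, with list means of -2.04 to -1.28 in wild-type and -0.16 to 0.79 in knockout-labelled arrays. Of 10 synovial fibroblast markers, 5 were higher, including Prg4 (4.41), Lum (3.15) and Pdgfra (1.64), and 4 lower, including Thy1 (-1.91) and Col1a1 (-1.49); their mean ranged from -0.94 to -0.14 and from -0.43 to 0.58. Of 8 macrophage markers only Lyz2 differed (-1.58), of 4 measured neutrophil markers Camp (2.34) and S100a8 (1.83) did, of 4 platelet markers 1 was higher and 1 lower, and of the mast cell, T cell and smooth muscle lists none differed. Since centred values do not show whether a marker is absent, no list could be placed at or near 0 expression. Gaps as large as those of Pecam1, Emcn and Cdh5 do mean that these endothelial markers gave signal in wild-type arrays. The part of these cell types in the genotype differences of the prostaglandin genes was not tested.

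Other genes of the pathway were read from lists of each step, outside the 8 members. Their counts stand against 2.56% of all genes called with TNFa and 1.19% with LPS in wild-type cells, 14.0% and 1.79% in knockout-labelled cells, and 37.6% between untreated genotypes. Among the terminal synthases and related enzymes, 7 of 9 measured, Ptges2, a membrane-associated prostaglandin E synthase, rose with LPS in wild-type (0.56 ± 0.12, adjusted p = 0.00611) and in knockout-labelled cells (0.56 ± 0.09, adjusted p = 9.15e-05), and with TNFa in knockout-labelled cells (0.71 ± 0.09, adjusted p = 1.03e-07). Cbr1, a carbonyl reductase, fell by 0.27 ± 0.07 with TNFa in knockout-labelled cells (adjusted p = 0.00483). These were 1 higher and 0 lower with LPS in each genotype, and 1 higher and 1 lower with TNFa in knockout-labelled cells. Of 5 measured transport and breakdown genes, the export pump gene Abcc4 rose with TNFa in both genotypes, by 0.57 ± 0.15 in wild-type (adjusted p = 0.0303) and 1.08 ± 0.11 in knockout-labelled cells (adjusted p = 2.39e-09). In knockout-labelled cells the uptake carrier gene Slco2a1 rose as well, by 1.26 ± 0.27 (adjusted p = 0.000841). The list medians under TNFa were 0.45 and 0.28, against 0.00 and 0.01 over all genes.

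Of 8 further genes on the prostanoid receptor list, Ptgir, the prostacyclin receptor, was the 1 that passed under TNFa, with a rise in both genotypes. It gained 0.94 ± 0.19 in wild-type (adjusted p = 0.00188) and 0.96 ± 0.14 in knockout-labelled cells (adjusted p = 3.06e-06); in the latter, Ptgis, which makes its ligand, fell. Among 13 measured genes of arachidonate release and re-esterification only Acsl4, an arachidonate-preferring acyl-CoA synthetase, changed with TNFa in knockout-labelled cells (0.53 ± 0.17, adjusted p = 0.0285), and none did in wild-type cells. Between untreated genotypes this list had 3 of 13 members higher and 3 lower in knockout-labelled cells, where 37.6% of all genes differed in either direction. Pla2g6, a calcium-independent phospholipase, was lower there (-1.43 ± 0.25), as was Acsl4 (-1.17 ± 0.16), and Pla2g12a was higher (0.69 ± 0.08). The synthase list had 4 higher and 1 lower, led by Prxl2b, a prostaglandin F synthase (1.14 ± 0.10), and Ptges2 (0.91 ± 0.08), with a list median of 0.59 against 0.03 over all genes. The receptor list had 3 higher and 0 lower: Ptgfr, the prostaglandin F receptor (1.89 ± 0.22), Ptgir (0.70 ± 0.13) and Ptgfrn (0.53 ± 0.10), which does not itself encode a prostanoid receptor. Of the transport and breakdown genes Cbr3 (0.82 ± 0.09) and Ptgr1 (0.68 ± 0.08), both reductases, were higher and none was lower.

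The genes whose values ran most closely with each member over the 42 arrays were named by Pearson correlation. For Hpgd they were Comp (r = 0.991), Rbp4 (r = 0.987) and Scara3 (r = 0.983), and for Ptges S1pr2 (r = 0.967), Tmem243 (r = 0.964) and Slc43a2 (r = 0.961). All these points share arrays and the gap between the genotypes. For Ptgs2 they were Cct3 (r = 0.911), Coq10b (r = 0.894) and Ran (r = 0.879), and for Ptger4 Stard7 (r = 0.901), Adam10 (r = 0.900) and Cdh13 (r = 0.895). Ptgis was closest to Rab34, Morn4 and Hcfc1r1 (r from 0.916 to 0.920), Pla2g4a to Tmem29, Amn1 and Ssbp1 (r from 0.859 to 0.863). Ptger2 had the loosest neighbours, Pdlim4 (r = 0.802), Rarres2 (r = 0.748) and Tnmd (r = 0.738). Probe sets of the same member ran together over all 42 arrays, at r = 0.886 for Ptgs2, 0.968 and 0.961 for Ptges, 0.873 for Hpgd and 0.953 for Ptger4.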

How the data were processed

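The authors deposited log2 values. RMA made them, as the submitters' processing notes say without a version, and every probe set is centred on its median over the 42 arrays (largest absolute median 5.0e-07). No source used here states the base; 2 was taken because no probe set spans more than 9.806, and positive values were read as higher. Array medians lay between -0.0239 and 0.0252. The 34958 of 45101 probe sets that carry a single gene were kept, leaving out 932 that carry more and 9211 that carry no gene. One probe set per gene was used, the one with the largest SD, avoiding those that correlated above 0.7 with 18S ribosomal RNA. All 42 arrays were fitted in limma 3.58.1 (R 4.3.3; lmFit and eBayes; degrees of freedom 30 residual, 4.23 prior), estimating the means of all 12 groups, and 27 comparisons were adjusted by Benjamini-Hochberg over 18194 genes, each on its own, with a threshold of 0.05. Differences are given ± SE. The fit was tested on simulated data with independent errors. These had no array sets and no likeness of same-numbered cultures, so they do not show how the fit behaves with either. Precision is limited by how many arrays a group has.

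Array sets were defined by probe sets of no prostaglandin gene. Those used leave a gap of at least 1 between 2 groups of at least 5 arrays within a genotype. Of 37 such probe sets, 30 share the wild-type split and 5 the next most common one. Of 20, 9 share the knockout-labelled split and 7 the next most common one. The knockout-labelled split is thus the less clear, and results with the array set as a block rest on it. A high 18S signal is a centred value above 1. No 2 arrays were identical. Replicate numbers were not taken as pairs in the main fit, under a rule that every same-numbered pair correlate above 0.1. Of same-numbered pairs 25 of 30 did in wild-type and 34 of 55 in knockout-labelled cells. Of pairs with different numbers only 20 of 60 and 74 of 241 did. Same-numbered cultures were thus more alike, which the main fit leaves out and the replicate block takes in. Treated cultures of 1 genotype with the same number do lie in the same array set. Untreated cultures need not. Wild-type untreated replicate 2 and knockout-labelled untreated replicates 3 and 4 lie in set a, but treated cultures of those numbers lie in set b. For these numbers the replicate block sets treated cultures of set b against untreated ones of set a, so it mixes treatment with array set. The members and the pathway, marker and motif lists were chosen with earlier results of these data known. The text names the 8 members, list genes called under TNFa, under LPS or between untreated genotypes, and the 3 genes with the highest correlation to each member. The alternatives were other normalizations, probe set rules and blocks, only the compared groups, arrays left out, and, added after seeing the data, each array set alone.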

Additional observations from a re-analysis of the deposited data

Results flagged for a closer look

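Of 42 groups of 4 to 10 cultures tested for a culture far from the rest, 1 stood out, and chance alone gives about 1 in 20. In knockout-labelled cells with TSG-6 and HA, replicate 3 read -0.076 for Pla2g4a, whereas the other 3 cultures lay between 0.18 and 0.21, and the gap was 0.896 of the whole range of the group. Pla2g4a passed no comparison, so no call rests on this culture.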

How the results depend on the processing

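Counts of members called, out of 7, moved as follows. With only the groups compared they were 2 for wild-type TNFa, 0 for knockout-labelled TSG-6, and 0 and 3 for TNFa against LPS in wild-type and knockout-labelled cells. With the array set as a block they were 3 for wild-type TNFa, 5 for knockout-labelled TNFa, 1 for knockout-labelled TSG-6 with HA, 2 for the difference in TNFa response and 4 for knockout-labelled TNFa against LPS. Array set a alone gave 2 for wild-type TNFa and 2 for knockout-labelled TSG-6, and set b alone 3 and 0. Quantile normalization gave 0 for wild-type TNFa, 1 for knockout-labelled TSG-6 with HA, 3 between genotypes with LPS, 3 with HA, 1 for the difference in TNFa response, and 0 and 3 for TNFa against LPS in wild-type and knockout-labelled cells. The mean of the probe sets of a gene gave 2 for wild-type TNFa, 1 for knockout-labelled TSG-6 with HA, and 0 and 2 for TNFa against LPS; testing all probe sets gave 2 for the last. Without the arrays of high 18S signal they were 0 for knockout-labelled TSG-6, 3 between genotypes with LPS, and 0 for wild-type TNFa against LPS. Cyclic loess gave 1 for knockout-labelled TSG-6 with HA, and between genotypes 1 with TNFa, 1 with LPS, 0 with TSG-6, 3 with HA and 0 with both. It lowered the Hpgd and Ptges differences between genotypes in every condition, with the call lost for Hpgd in 5 and for Ptges in 3. The Ptgis calls between genotypes were lost as well. Ptgis differed by -0.001 ± 0.17 in untreated cells, -0.333 ± 0.25 with LPS and -0.292 ± 0.27 with TSG-6. With HA it was -0.313 ± 0.25 and with both -0.336 ± 0.25 (adjusted p from 0.461 to 0.999 over these conditions). On centred values the axis of cyclic loess is not brightness, and otherwise the cause was not tested. In all, 194 counts were within 1.5 times of those reported and 42 were not. With cyclic loess, genes called between genotypes fell from 4273 to 1949 with TNFa and from 4363 to 1832 with LPS. They fell from 3444 to 835 with TSG-6, from 4236 to 1486 with HA and from 3935 to 1260 with both. With quantile normalization those for LPS fell less, from 4363 to 4025. Whether the members moved more than other genes was not tested.

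Deviations of same-numbered cultures of a genotype correlated at a mean of 0.323 in wild-type (30 pairs, lowest -0.652) and 0.27 in knockout-labelled cells (55 pairs, lowest -0.262), against -0.162 and -0.06 for different numbers. Same-numbered treated cultures also share an array set, so number and set cannot be told apart in wild-type treated cultures; 5 of 12 and 8 of 23 treated or matched arrays correlated best with their own number. With the replicate block, counts were 3 for wild-type TNFa, 1 for wild-type LPS, 5 for knockout-labelled TNFa and 1 for knockout-labelled LPS. They were 1 for TSG-6 with HA, 2 for the difference in TNFa response, 3 for knockout-labelled TNFa against LPS and 2 for TSG-6 with HA against HA. Some treated cultures of set b are there set against untreated ones of set a. The wild-type LPS call was Hpgd, at -1.852 ± 0.484, against -0.715 ± 0.242 with the array set as a block, which was not called.

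Leaving out 1 culture at a time, counts ranged from 0 to 1 for knockout-labelled TSG-6, for TSG-6 with HA, for the difference in TNFa response and for wild-type TNFa against LPS. Between genotypes they ranged from 5 to 6 untreated, 2 to 3 with TNFa, 2 to 5 with LPS and with HA, and 2 to 4 with TSG-6 and with both. The count stayed at 3 for knockout-labelled TNFa and 1 for wild-type TNFa. Where a group of 2 loses 1, the remaining culture is taken to spread as the other groups do. Small numbers of wild-type cultures and unknown brightness limit all values.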

Other observations

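Arachidonic acid also feeds the lipoxygenase and leukotriene branch, for which a list of 10 genes was measured. The list includes Ephx2, which is not itself a gene of that branch. Between untreated genotypes 2 were higher and 2 lower in knockout-labelled cells, where 37.6% of all genes passed in either direction, with a list median of -0.03 against 0.03 over all genes. The largest was Ltc4s, leukotriene C4 synthase, at -4.03 ± 0.17 (adjusted p = 3.72e-20), followed by Alox5ap, the activating protein of 5-lipoxygenase, at -0.66 ± 0.12 (adjusted p = 2.54e-05). The receptor genes Cysltr1 (0.41 ± 0.16) and Ltb4r1 (0.36 ± 0.10) were higher. With TNFa, Ephx2, soluble epoxide hydrolase, fell by 0.84 ± 0.15 in wild-type cells (adjusted p = 0.000473), and Alox12 rose by 0.70 ± 0.14 in knockout-labelled cells (adjusted p = 0.000552). Ephx2 also fell by 0.74 ± 0.15 with LPS in wild-type cells (adjusted p = 0.00483).

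Of 11 measured genes that cAMP is known to regulate, 1 rose and 2 fell with TNFa in knockout-labelled cells and 2 fell in wild-type cells, where 14.0% and 2.56% of all genes passed in either direction. Pde4b, a cAMP phosphodiesterase, rose by 1.88 ± 0.18 in knockout-labelled cells (adjusted p = 4.73e-10), where its relative Pde4d fell by 0.47 ± 0.13 (adjusted p = 0.0122) and Nr4a1 by 0.35 ± 0.12 (adjusted p = 0.0393). In wild-type cells Pde4d fell by 0.81 ± 0.18 (adjusted p = 0.00584) and Crem, a cAMP-responsive repressor, by 0.68 ± 0.18 (adjusted p = 0.0226). Between untreated genotypes 2 were higher and 4 lower in knockout-labelled cells (37.6% of all genes passed), led by Crem (-2.68 ± 0.12) and Pde4b (-2.55 ± 0.17). With LPS none of the 11 passed in either genotype by limma.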
